A study of Mus musculus with 8 samples.

Results

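The organic ion and drug transporters described here are all array probes whose gene symbol in the platform annotation belongs to the Slc22a, Slco, Slc47a, Abcb or Abcc families or is Abcg2. They number 77 of 25697 probes and stand for 47 of 16593 named genes. They were picked by gene symbol and not by measured value, though with earlier results of these data known. Total RNA of 4 kidney tumors from mice with a Lin28 transgene and of 4 non-tumorous control kidneys was hybridised to Illumina bead arrays of 1 colour, 1 for each sample. Tumor 1 and control 1 were taken at 5 weeks of age, and tumors 2 to 4 and controls 2 to 4 at 4 months. The labels call the tumors Wilms tumors derived from Lin28 and the samples biological replicates. The promoter and cell type that drive the transgene, the genotype of the control animals, and strain and sex of all animals are not stated in the labels.

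The proximal tubule of the kidney takes organic anions and cations up from the blood through basolateral carriers of the Slc22a family and releases them into the urine through apical exporters such as Slc47a1 and Abcc2. Drugs, toxins, prostaglandins and hormone conjugates travel this way, while Slc22a12 and Slc22a5 take urate and carnitine back from the urine. Slco proteins are carriers of larger organic anions such as prostaglandins, thyroid hormones and conjugated steroids, and Abc proteins are pumps driven by ATP. Several Slc22a carriers of mouse and rat kidney are known to differ in level between the sexes. The family names do not cover 1 function: Slc22a17 is a receptor for lipocalin, Abcb6, Abcb8 and Abcb10 are known from mitochondria, Abcb9 carries peptides into lysosomes, and Abcc8 and Abcc9 are regulatory subunits of potassium channels.

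Values are background-subtracted probe intensities on a linear scale, which the authors had scaled to a mean of 274 on every array. The background limit of an array was set at 3 times its noise, and lay between 10.7 and 27.6 intensity units, with the highest limit on the array of tumor 1. On each array 44.2% to 55.3% of the probes exceeded it. Changes are differences of log2(intensity + 16), tumors minus controls, so that those of dim genes are understated. They were tested with limma across 11413 genes and unnamed probes that were bright enough, and a change was called at a Benjamini-Hochberg adjusted p under 0.05. Of the 47 transporter genes, 32 were tested and 15 were too dim. Levels of different probes are not compared with each other.

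Most of the tested transporters were lower in the tumors. Over the 8 arrays 18 of the 32 fell, where 12.2% of all tested units fell, and 1 rose, where 32.2% of all rose. The changes that fell ran from -4.91 to -0.62, and 17 of them were at least 2-fold. For 14 of the 32, every tumor lay below every control, a pattern that 10.2% of all tested units showed. The median change of the 32 was -1.15, against 0.35 for all units. With all probes kept and no filter, 16 of the 47 fell (6.2% of all units) and 1 rose (18.2% of all units). The share of rises among all called units depended on the scaling: 72.6% of called units were higher in tumors with the authors' scaling, 59.2% with equal medians, 55.4% with quantile normalization and 50.1% with cyclic loess. Under these 4 scalings the median of all units was 0.35, 0.20, 0.04 and -0.01.

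By family, all 16 Slc22a genes were tested, of which 12 fell and 1 rose, with a median change of -2.51. Of 11 Slco genes 4 were tested and 1 fell, and the 1 tested Slc47a gene of 2 fell. Among the Abc genes, 2 of 5 tested Abcb genes and 2 of 6 tested Abcc genes fell, and none of these rose. Abcg2, an efflux pump for many drugs, was under background on all 8 arrays on its 1 probe. Here and below, a probe that fails to detect its gene cannot be told apart from a gene that is not expressed.

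At 4 months alone, with 3 tumors against 3 controls, 19 of the 32 fell (13.4% of all units) and 1 rose (29.5% of all units). The median change was -1.41, against 0.34 for all units. Fallen in both comparisons were 17 genes. Abcb8 passed over 8 arrays (-0.62) and missed the threshold at 4 months at nearly the same change (-0.61), and Abcb1b and Abcb9 passed at 4 months and not over 8 arrays. All 3 tumors lay below all 3 controls for 21 of the 32 (17.4% of all units) and above them for 2 (38.9% of all units). Tumor 1 had the highest level of the 4 tumors for 12 of the 18 genes that fell over the 8 arrays. The same held for 78.4% of all units that fell, so this count does not set the transporters apart. Tumor 1 differs in age from the other tumors. Its array is given apart below for that reason, against control 1 of its own age, as 1 pair with no replicate.

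Markers of the proximal tubule, the segment where most of these carriers are known from, moved with the transporters, as did those of other nephron segments. All 8 measured markers of a list of 10 fell, among them Slc34a1, Slc5a2, Aqp1 and Lrp2. Their summed intensity was 40698 to 59066 in the controls, 35825 in tumor 1 and 902 to 2412 in tumors 2 to 4. Of 5 markers of distal segments (loop of Henle onwards) 4 fell, with a sum of 20970 to 34220 in the controls, 17822 in tumor 1 and 724 to 2997 in tumors 2 to 4, and of 5 of the collecting duct 2 fell. All 5 nephron progenitor markers rose, and their sum was 108.8 to 258.9 in the controls, 4209 in tumor 1 and 3190 to 6620 in the other tumors. All 6 stroma markers and 2 of 3 tested macrophage markers rose as well. Of all tested units 12.2% fell and 32.2% rose. In such bulk samples, fewer cells of a type and less RNA per cell cannot be told apart, and the part of these markers in the changes of the transporters was not tested. Of the sex-linked genes with a probe, Xist rose and Kdm5d fell, while Uty did not pass and Eif2s3y was too dim to test. Xist, which is transcribed from the inactive X chromosome, measured 7.00, 34.8, 2.20 and 8.10 in controls 1 to 4 and 213.2, 155.1, 222.9 and 300.9 in tumors 1 to 4. Kdm5d, a gene of the Y chromosome, measured 44.9, -5.60, 44.7 and 53.7 in the controls and at most 4.60 in the tumors, all under background there. Uty, also of the Y chromosome, measured 27.8, 10.3, 40 and 40.9 in the controls and 24.8, 7.5, 12.4 and 25.1 in the tumors, above background in tumors 3 and 4, and did not pass (-0.43, limma adjusted p = 0.278). Eif2s3y was under background on every array. Sex and group cannot be told apart in these samples. Control 2 was as low in Kdm5d as the tumors and the highest of the controls in Xist.

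Among the carriers of organic anions, Slc22a6 and Slc22a8 are the main basolateral uptake carriers of the proximal tubule, and Slc22a12 takes urate back from the urine. The 250 bases before the RefSeq gene start of these 3 genes (GRCm38.p6) are shown because all 3 fell and Slc22a8 and Slc22a6 are neighbours on chromosome 19. Each is written 5′ to 3′ on the strand of its gene, and capitals mark GTTAAT, the shortened recognition motif of the liver and kidney factor HNF1, searched on both strands.
Slc22a8 (chr19:8592932-8593181, plus strand): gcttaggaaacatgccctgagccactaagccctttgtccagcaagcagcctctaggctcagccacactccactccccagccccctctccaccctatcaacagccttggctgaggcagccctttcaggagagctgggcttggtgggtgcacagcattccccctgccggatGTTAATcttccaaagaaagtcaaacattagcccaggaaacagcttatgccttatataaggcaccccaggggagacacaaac
Slc22a6 (chr19:8617746-8617995, plus strand): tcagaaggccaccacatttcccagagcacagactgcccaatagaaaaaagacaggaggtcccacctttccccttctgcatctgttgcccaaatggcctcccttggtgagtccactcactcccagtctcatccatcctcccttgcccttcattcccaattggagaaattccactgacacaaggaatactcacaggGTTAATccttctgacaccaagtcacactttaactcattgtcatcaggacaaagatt
Slc22a12 (chr19:6543071-6543320, minus strand): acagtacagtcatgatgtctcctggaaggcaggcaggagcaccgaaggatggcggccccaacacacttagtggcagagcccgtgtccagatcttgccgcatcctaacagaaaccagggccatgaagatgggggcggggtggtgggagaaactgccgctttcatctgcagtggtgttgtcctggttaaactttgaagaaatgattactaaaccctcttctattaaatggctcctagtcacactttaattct
The motif begins 56 bases before the start of Slc22a6 and 81 bases before that of Slc22a8, and these letters are not in the window of Slc22a12. It stands in 3 of 46 promoters that match a transporter gene, the third being that of Slco1b2, and in 6.43% of all 32851 promoters. These 6 letters were chosen after the longer GTTAATNAT had matched only the promoter of Slco1b2 among the 46 (0.737% of all promoters). The HNF4 motif CAAAGTCCA was in 0 of the 46 and in 0.384% of all. Promoters were found for 38 of the 47 genes, some with several starts. A match describes the letters and is no evidence of binding.

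Slc22a6 measured 12246, 2690, 9443 and 4993 in controls 1 to 4, and 2089, 90.6, 163.5 and 43.6 in tumors 1 to 4. Every tumor was below every control, but tumor 1 lay close under control 2 and far above the other tumors. The change was -4.83 ± 1.02 (SE), a 28.4-fold fall (limma adjusted p = 0.00596). At 4 months it was -5.59 ± 0.55 (SE), or 48.3-fold (limma adjusted p = 6.17e-04), and in the 5-week pair it was -2.54.

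Its neighbour Slc22a8 was much dimmer on its probe, at 63.5, 232.9, 65.6 and 130.7 in the controls and 116.7, 3.90, 4.60 and 6.20 in the tumors. Tumor 1 lay among the controls, while tumors 2 to 4 were under background. The change was -1.90 ± 0.65 (limma adjusted p = 0.0405), a call that leaving out any single array other than tumor 1 ended (adjusted p from 0.0550 to 0.104). At 4 months Slc22a8 was at least 5.04-fold lower (limma adjusted p = 0.00209), whereas tumor 1 was 0.74 log2 units above control 1.

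Slc22a12 measured 3422, 1286, 2909 and 1389 in the controls and 385.2, 18.5, 27.2 and 22.0 in the tumors. The groups did not overlap, and tumor 1 stood between the controls and the other tumors. This was the largest fall of the 32 genes over 8 arrays, at -4.91 ± 0.77 (SE) or 30.0-fold (limma adjusted p = 0.00178). In the 5-week pair it was -3.10. Slc22a13, an apical carrier known for urate and nicotinate, fell by 3.04 ± 1.03 (SE; limma adjusted p = 0.0394) over 8 arrays. Its intensities were 1066, 3669, 1102 and 1060 in the controls and 1932, 61.4, 102.6 and 43.1 in the tumors. Tumor 1 exceeded 3 of the 4 controls, and leaving out any other single array ended the call (adjusted p from 0.0614 to 0.103). At 4 months the fall was 20.1-fold (limma adjusted p = 0.00119).

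Slc22a22 carries prostaglandins. It measured 2968, 774.1, 3271 and 1067 in the controls, and 586.6, 16.8, 19.8 and 7.00 in the tumors. All tumors were below all controls, and the change was -4.74 ± 1.00 (SE), or 26.8-fold (limma adjusted p = 0.00593).

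Slc22a19 and Slc22a26 are further anion carriers that lie side by side on chromosome 19. Their probes are uncertain, since these genes have near-identical copies. The probe that stands for Slc22a19 gave 713.9, 2514, 907.5 and 510.7 in the controls and 18.9, 35.4, 120.8 and 75.9 in the tumors. Here tumor 1 was the lowest of all 8 arrays, unlike for the genes above, and the fall was 14.1-fold (change -3.82 ± 0.56, limma adjusted p = 0.00129). A second probe of Slc22a19 gave 483.3 in tumor 1 and 383.6 in control 1, with a change of -2.45 over the 8 arrays (limma adjusted p = 0.0567). Slc22a26 was 26.1 to 46.9 in the controls, and all 4 tumors were under background, between 0.50 and 27.1. Tumor 1, whose array had the highest background limit, was at 27.1 and within the range of the controls. In the 5-week pair the change was -0.04. Over 8 arrays Slc22a26 was at least 1.61-fold lower (limma adjusted p = 0.0171). The call was lost without control 3 (limma adjusted p = 0.0525), without tumor 3 (limma adjusted p = 0.0507) or with normexp background correction (limma adjusted p = 0.0916).

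Slc22a7, another anion carrier, did not pass the test. It measured 101.7, 528.2, 119.7 and 55.3 in the controls and 174.0, 39.0, 30.9 and 37.1 in the tumors. The 3 tumors of 4 months were below every control, and tumor 1 was above 3 of them. The change was -1.14 ± 0.66 over 8 arrays (limma adjusted p = 0.187) and -1.75 ± 0.67 at 4 months (limma adjusted p = 0.0725).

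**Figure D1:**
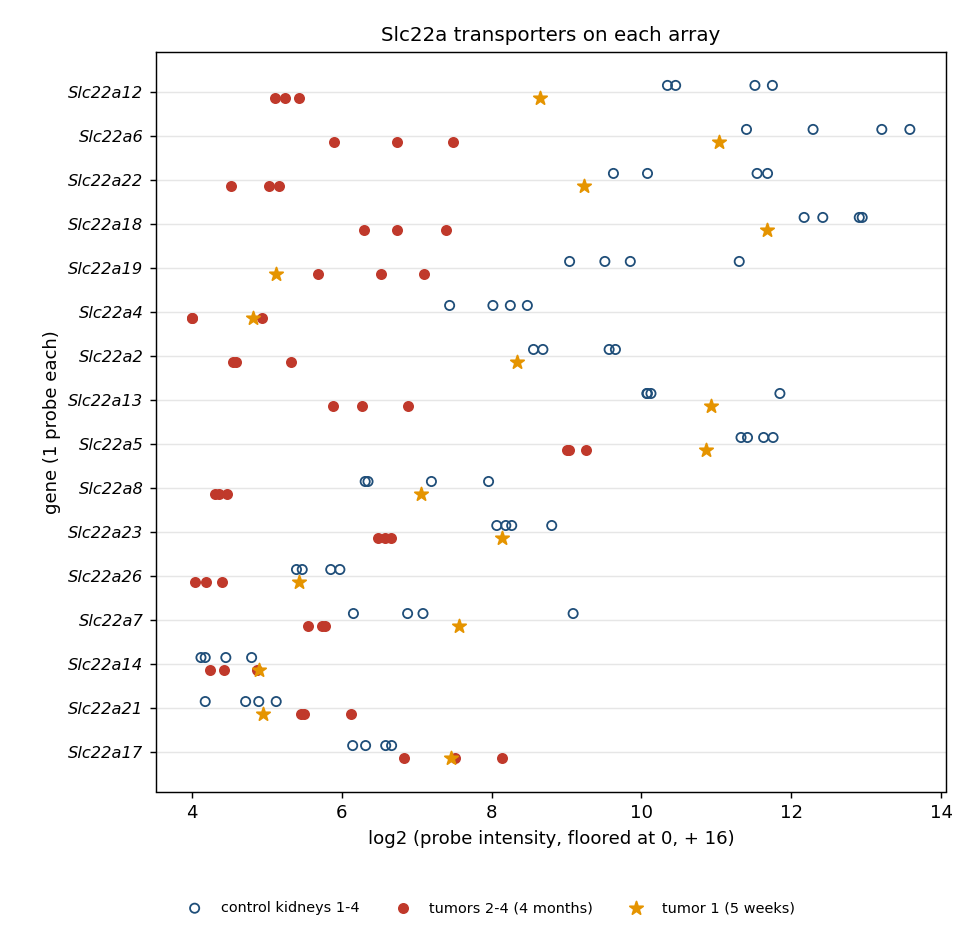
Intensity of the probe that stands for each of the 16 Slc22a genes, as log2(intensity floored at 0, plus 16) on the horizontal axis, in control kidneys 1 to 4 (open circles), tumors 2 to 4 of 4 months (filled circles) and tumor 1 of 5 weeks (star). Genes are ordered by their change over the 8 arrays; 12 fell, and for many of them the star lies between the other tumors and the controls.

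Of the carriers of organic cations and carnitine, Slc22a2, Slc47a1, Slc22a4 and Slc22a5 fell, and Slc22a21 did not. Slc22a2 takes organic cations such as metformin up from the blood. Its intensities were 743.2, 361.2, 788.9 and 395.4 in the controls and 308.4, 8.00, 24.2 and 7.30 in the tumors. Tumor 1 was only just below the lowest control, and the 2 tumors at the low end were under background. The change was -3.42 ± 0.79 (SE), or 10.7-fold (limma adjusted p = 0.00855), and -1.23 in the 5-week pair.

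Slc47a1 is the apical exchanger that passes such cations on into the urine. On its brightest probe it measured 16147, 9363, 13915 and 8700 in the controls and 6135, 1152, 2171 and 1374 in the tumors. No tumor reached a control on this probe. The fall was 5.39-fold, with a change of -2.43 ± 0.50 (SE; limma adjusted p = 0.00527), and 6.84-fold at 4 months (limma adjusted p = 8.96e-04). Of its other 3 tested probes, 2 fell, by 2.61 and 2.67, and 1 did not pass, at -0.29. The latter was dim, between 3.50 and 12.9, and above background on only 1 array. On the 2 that fell, tumor 1 (615.0 and 628.8) lay above control 2 (594.9 and 501.7). Slc47a2, the next gene on chromosome 11, was under background on all arrays.

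On the same chromosome, Slc22a5, Slc22a21 and Slc22a4 lie in a row in the GRCm38.p6 annotation. The outer 2 fell and Slc22a21 between them did not. Slc22a4 carries ergothioneine and measured 243.1, 340.3, 288.4 and 157.6 in the controls and 12.1, 14.6, -4 and -4.30 in the tumors. Of the tumors only number 2 was above background, barely, so that the size of the fall depends on the value added before log2. The change was -3.61 ± 0.31 with 16 added (limma adjusted p = 1.26e-04), -4.92 with 4 added and -2.16 with 64 added, and passed with each. Unlike Slc22a6 or Slc22a12, this gene was under background in tumor 1 as well, where it was at least 5.95-fold below control 1.

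Slc22a5, the carrier that takes carnitine back from the urine, kept a clear signal in every tumor. Its values were 2715, 3444, 2556 and 3154 in the controls and 1839, 507.2, 599.1 and 499.2 in the tumors. All tumors were below all controls, with a 3.98-fold fall (change -1.99 ± 0.40, limma adjusted p = 0.00481), of which the 5-week pair showed -0.56. Of its 2 other tested probes 1 fell and 1 did not pass, and on the latter the groups overlapped. Slc22a21, a further carnitine carrier, lay at 2.10 to 18.9 in the controls and at 15.0, 28, 29.1 and 53.9 in the tumors. It passed at 4 months alone, where it was 0.78 log2 units higher (limma adjusted p = 0.0405), and not over 8 arrays (0.78, limma adjusted p = 0.0571).

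The less well understood Slc22a members went both ways. Slc22a18 is an imprinted gene whose human counterpart lies in the Beckwith-Wiedemann region and whose transported substance is not settled. It measured 7875, 5464, 7664 and 4595 in the controls and 3243, 152.2, 91.0 and 62.6 in the tumors. Tumor 1 lay below the lowest control and far above the other 3 tumors. Over 8 arrays the change was -4.59 ± 1.03 (SE; 24.0-fold, limma adjusted p = 0.00787). At 4 months it was -5.69 ± 0.33 (SE), or 51.6-fold, the largest fall of the 32 genes there (limma adjusted p = 1.62e-04).

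Slc22a23, an orphan member, measured 275.9, 430.4, 252.5 and 292.3 in the controls and 265.1, 79.4, 84.5 and 73.6 in the tumors. Tumor 1 was within the range of the controls. The fall was 2.59-fold (change -1.37 ± 0.38, limma adjusted p = 0.0175), and without tumor 3 or without tumor 4 the adjusted p was 0.0507 and 0.0503.

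The only member that rose over 8 arrays was Slc22a17, the lipocalin receptor. It measured 63.8, 85.5, 80.1 and 54.8 in the controls and 160.3, 97.8, 166.0 and 265.3 in the tumors, so every tumor was above every control. The rise was 2.08-fold (change 1.06 ± 0.28, limma adjusted p = 0.0151). It did not pass with quantile normalization (0.61, limma adjusted p = 0.114) or cyclic loess (0.55, limma adjusted p = 0.122), nor at 4 months alone (1.03, limma adjusted p = 0.0507). A second probe of the gene gave -0.05. It was dim, between 3.70 and 14.1, and above background on only 3 arrays. Slc22a14 was dim and did not pass (0.22, limma adjusted p = 0.466).

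Of the Slco carriers, only Slco3a1, which carries prostaglandins and thyroid hormone, fell. It measured 698.8, 203.1, 580.1 and 515.0 in the controls and 131.6, 172.2, 132.6 and 154.0 in the tumors. All 4 tumors lay close together below the lowest control, and the fall was 2.90-fold (change -1.54 ± 0.35, limma adjusted p = 0.00813). Tumor 1 was the lowest tumor, and the 5-week pair differed by -2.28, more than the 4-month arrays (-1.29, limma adjusted p = 0.0340). Of 2 further tested probes of the gene 1 fell and 1 did not pass. On both, control 2 (49.7 and 18.8) lay among the tumors (42.3 to 59.8 and 18.2 to 38.1).

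The prostaglandin carrier Slco2a1 measured 85.9, 380.4, 124.4 and 320.1 in the controls and 246.1, 236.1, 228.8 and 285.0 in the tumors. The tumors lay within the range of the controls, among which numbers 1 and 3 were low and numbers 2 and 4 high. The same order of controls was seen for Slco2b1, a carrier of steroid sulfates, at 259.4, 835.8, 290.4 and 697.8, and its tumors measured 612.2, 846.1, 453.5 and 626.3. Slco4a1, which carries thyroid hormone, measured 66.9, 446.0, 93.4 and 253.4 in the controls and 151.6, 642.5, 193.9 and 145.8 in the tumors. None of these 3 passed (changes from 0.34 to 0.43, limma adjusted p of 0.539, 0.419 and 0.603).

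The other 7 Slco genes were not tested, and 5 of them were under background on every array. Slco1a4, an organic anion carrier, was above background in control 1 (30.6) and control 3 (25.3) alone, and measured 0.80 and -1.20 in controls 2 and 4 and at most 6.70 in the tumors. Slco1a5 was above background in tumor 2 alone (20.1). Slco4c1, known as a digoxin carrier of the kidney, was among the 5 with no array above background, as were Slco1a1, Slco1a6, Slco1b2 and Slco1c1.

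Among the Abcc pumps, Abcc2 is the apical exporter of conjugated organic anions. Its intensities were 298.6, 349.2, 453.8 and 316.5 in the controls and 104.7, 17.0, 17.4 and 6.40 in the tumors. All tumors were below all controls, and the fall was 8.81-fold (change -3.14 ± 0.47, limma adjusted p = 0.00145), with -1.38 in the 5-week pair. On a second probe, which also passed, all 4 tumors were under background and the gene was at least 1.51-fold lower. Abcc6, whose loss causes calcification of connective tissue, measured 30.9, 19.6, 28.7 and 24.0 in the controls and -1.70, 1.00, 3.10 and 5.70 in the tumors, all under background. It was at least 1.31-fold lower (limma adjusted p = 0.00152).

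Abcc3 is a basolateral exporter of conjugates and bile salts. It measured 4.70, 702.9, 8.60 and 90.4 in the controls and 400.5, 403.2, 163.7 and 220.4 in the tumors. Control 2 was the highest of all 8 arrays and controls 1 and 3 were under background, so the change of 1.89 ± 1.01 did not pass (limma adjusted p = 0.158). Without control 2 it was 2.96 and passed (limma adjusted p = 0.00702).

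Abcc9, the channel subunit of smooth muscle and pericytes, was 10.1, 48.1, 12.4 and 13.0 in the controls and 27.2, 140.4, 35.2 and 191.6 in the tumors. Its change was 1.43 ± 0.55 (limma adjusted p = 0.0608). Control 2 exceeded tumors 1 and 3, and without control 2 the gene passed (1.73, limma adjusted p = 0.0379), as it did without tumor 1 (1.79, limma adjusted p = 0.0195). The part of the stroma markers in these values was not tested. Abcc5, an exporter of cyclic nucleotides, and Abcc10 did not pass (0.37, limma adjusted p = 0.252, and -0.32, limma adjusted p = 0.508).

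In the Abcb family the P-glycoprotein gene Abcb1b, which exports many cancer drugs, was highest in tumor 1. It measured 14.8, 144.3, 18.6 and 220.6 in the controls and 290.3, 26.6, 1.90 and -2.50 in the tumors. No other array reached the level of tumor 1, and tumors 3 and 4 were under background. The change did not pass over 8 arrays (-0.86 ± 1.03, limma adjusted p = 0.523) and passed at 4 months (-2.25 ± 0.74, limma adjusted p = 0.0450). Tumor 1 was at least 9.44-fold above control 1, which was under background. Its neighbours on chromosome 5, Abcb1a and the phospholipid exporter Abcb4, were under background on all arrays.

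Of the mitochondrial Abcb genes, Abcb6 and Abcb8 fell and Abcb10 did not pass. Abcb6, which is known from porphyrin transport, measured 191.3, 270.0, 211.9 and 227.7 in the controls and 130.7, 66.1, 97.9 and 131.3 in the tumors. The groups did not overlap, and the fall was 2.01-fold (change -1.01 ± 0.23, limma adjusted p = 0.00843). Abcb8 measured 232.5, 267.8, 206.9 and 211.7 in the controls and 141.2, 103.0, 155.9 and 181.9 in the tumors, a 1.54-fold fall without overlap (change -0.62 ± 0.20, limma adjusted p = 0.0331). Leaving out any control, tumor 2 or tumor 3 ended that call (adjusted p from 0.0552 to 0.0733). On 2 more probes of Abcb8 the groups overlapped and the change did not pass.

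Abcb10, of heme synthesis in mitochondria, measured 161.2, 127.2, 163.0 and 180.5 in the controls and 142.2, 124.8, 101.0 and 99.6 in the tumors, which overlapped (-0.39 ± 0.19, limma adjusted p = 0.116). Abcb9, the lysosomal peptide carrier, passed only at 4 months. It measured 34.0, 86.2, 51.6 and 64 in the controls and 45.1, 31.3, 29.4 and 17.0 in the tumors. Its change was -0.67 over 8 arrays (limma adjusted p = 0.0739) and -0.99 at 4 months (limma adjusted p = 0.0173).

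**Figure D2:**
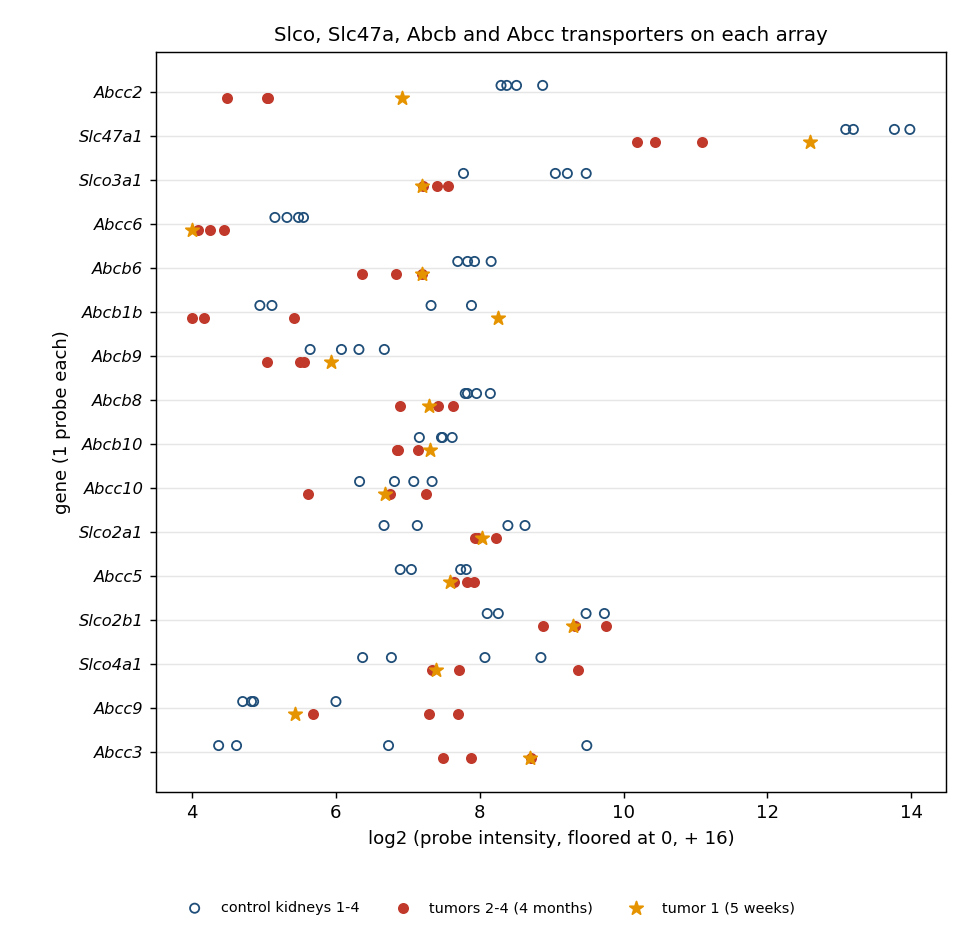
Intensity of the 16 tested Slco, Slc47a, Abcb and Abcc genes, 1 probe each, as log2(intensity floored at 0, plus 16) on the horizontal axis, in control kidneys 1 to 4 (open circles), tumors 2 to 4 (filled circles) and tumor 1 (star). Genes are ordered by their change; Abcc2, Slc47a1, Slco3a1, Abcc6, Abcb6 and Abcb8 have every tumor below every control, and for Abcb1b the star is the highest point.

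The remaining untested genes were under background on all 8 arrays. These were the bile salt exporter Abcb11, the drug pump Abcc1, Abcc12 and the channel subunit Abcc8, besides those named above.

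Whether the tumor effect differed between the ages was tested with a limma interaction term for age, which rests on the 5-week pair and assumes that it varies like the 4-month arrays. Of the 32 genes 1 passed, where 1.48% of all tested units did, and 13 had an unadjusted p under 0.05, as had 10.7% of all units. The gene was Slc22a18, whose tumor-control difference at 4 months minus that at 5 weeks was -4.41 ± 0.67 (SE) log2 units (limma adjusted p = 0.0253). Without control 4 or without tumor 3 no transporter passed this test. Abcb1b had a difference of -5.56, the largest in size, and did not pass (limma adjusted p = 0.198). For Slc22a13 it was -5.18 (limma adjusted p = 0.0791) and for Slc22a5 -1.91 (limma adjusted p = 0.0927). Of the 19 genes that fell at 4 months, the 5-week difference was less negative or positive for 16, against 89.4% of all units that fell at 4 months. The exceptions were Abcc6, Slc22a19 and Slco3a1. Age and the single tumor of that age cannot be told apart. The proximal tubule markers, at 35825 in tumor 1 and at most 2412 in the other tumors, moved the same way, and their part in the difference was not tested.

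**Figure D3:**
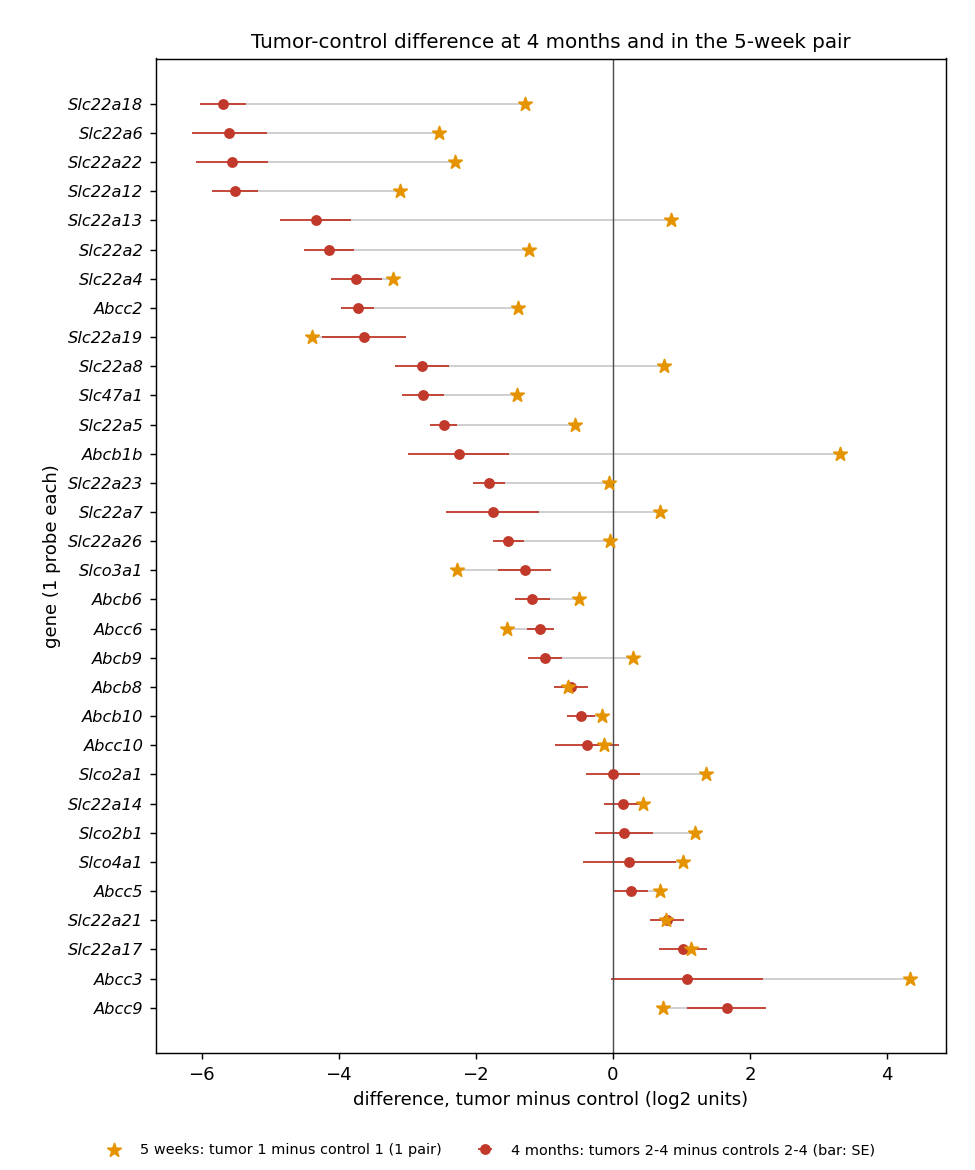
Difference between tumor and control in log2 units for the 32 tested transporters, at 4 months (filled circles, 3 tumors minus 3 controls, bars are the standard error) and in the 5-week pair (stars, tumor 1 minus control 1, no replicate). A grey line joins both values of a gene; the star lies to the right of the circle for 20 of the 24 genes whose circle is below 0.

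Several genes had more than 1 probe. Of 19 such genes, 10 had several probes bright enough for the test, and for 7 of these only some probes passed. Among the probes bright enough for the test, no gene had probes called in opposite directions. A second probe of Slc22a18, too dim for the test, gave -8.40, 1.90, 0.40 and 1.40 in the controls and 16.6, 5.40, 13.0 and 4.40 in the tumors. Only tumor 3 was above background on it. With every probe kept, this probe was called higher (0.58, limma adjusted p = 0.0430) and the bright probe lower (-4.59, limma adjusted p = 0.0341). Probes of Slc22a13 ranged from -3.04 to -2.02, those of Slc22a5 from -2.09 to -0.88, and those of Slc47a1 from -2.67 to -0.29. The -0.29 came from a dim probe that was above background on only 1 array.

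**Figure D4:**
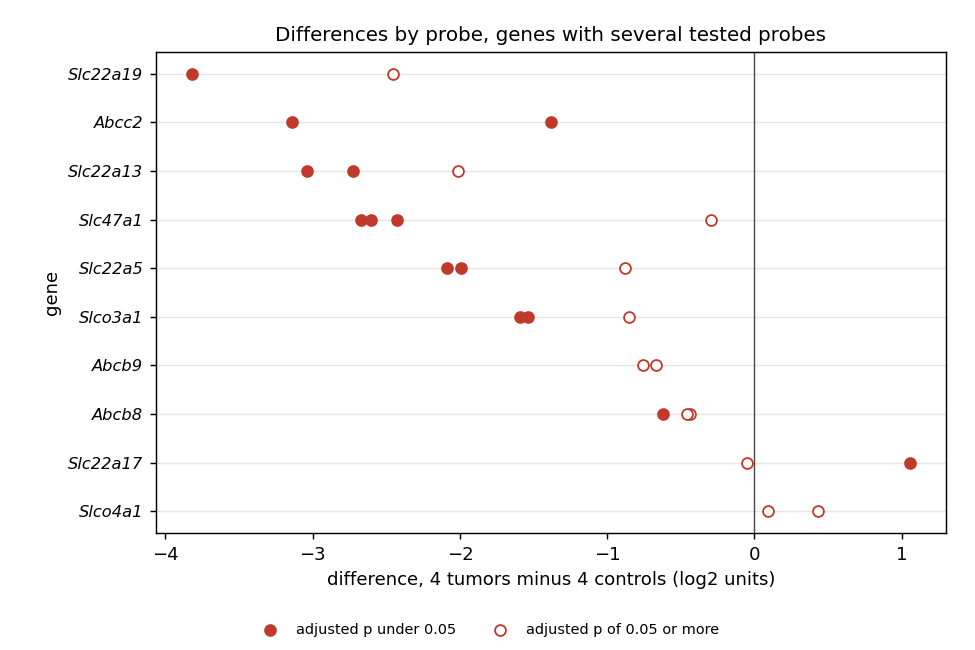
Change over the 8 arrays in log2 units, 4 tumors minus 4 controls, of every tested probe for the 10 genes with several such probes. Filled circles passed the limma test at an adjusted p under 0.05 and open circles did not; 7 genes have both kinds.

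Genes that drive or hold these carriers were examined as a list of 18, of which 14 were tested. Of these 11 fell (12.2% of all units) and 0 rose (32.2% of all units), with a median change of -2.38. The largest falls were those of Slc13a3, the dicarboxylate carrier that feeds anion exchange by Slc22a6 and Slc22a8, at -4.87 (limma adjusted p = 0.00603), and of Slc51a, a subunit of the basolateral steroid carrier, at -4.84 (limma adjusted p = 0.00188). The scaffold Pdzk1, which binds apical carriers, fell by 2.55 (limma adjusted p = 0.0134).

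Of 20 listed regulators of transporter transcription 12 were tested, 4 fell (12.2% of all units) and 2 rose (32.2% of all units). Nr1h4, the bile acid receptor, fell by 3.82 (limma adjusted p = 0.00185) and Hnf4a, a factor of proximal tubule and liver, by 2.54 (limma adjusted p = 0.00685). Foxa1 and Foxa3, forkhead factors of endodermal organs, rose by 1.13 and 1.01 (limma adjusted p = 0.0170 and 0.00769). Both were dim. Foxa1 measured 14.6, 9.20, -1.80 and 15.8 in the controls and 18.9, 60.7, 36.5 and 48.3 in the tumors. Foxa3 measured 4.40, 13.0, 2.90 and 9.10 in the controls and 17.3, 38.7, 33.0 and 35.4 in the tumors. Each was above background in 1 control and in tumors 2 to 4. Kap, an androgen-dependent gene of the mouse proximal tubule, measured 14872, 12507, 13144 and 3959 in the controls and 8051, 64.7, 19.1 and 60.8 in the tumors. Tumor 1 was above control 4 alone, and its change against control 1 of its own age was -0.88. Over 8 arrays Kap fell by 5.60 (limma adjusted p = 0.0166).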

How the data were processed

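Total RNA of 8 mouse kidney samples was hybridised to single-colour Illumina arrays. RNA was extracted with Trizol, cleaned and treated with DNase I, per the labels' protocols. The deposited series table was used, in which the authors give each probe an intensity on a linear scale; some lie below 0 and the mean is equal on all arrays, so the background had been subtracted and the arrays scaled, by methods that the labels leave unstated. A table of signals from before normalization went unused, as none of its 16 columns matches a sample by name.

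Negative intensities were replaced by 0, and log2 was taken after 16 had been added, which gives a lowest value of 4. Probes whose mean on this scale lay below the 40th percentile were left out, 15418 were kept, and the brightest kept probe stood for a gene, which left 11413 units, 48 transporter probes being among those kept. Where all arrays of a group were under background, the bound "at least N-fold" divides the brighter group by the dimmer one (means of log2 values), with each dimmer array raised to its background limit where its signal is lower. The main test was the moderated, two-sided one of limma 3.58.1 (R 4.3.3) without covariates, over the 8 arrays and over the 6 arrays of 4 months, and age by group as an interaction, each with Benjamini-Hochberg adjustment over all units. The script was tested on simulated data. Array number, 4 per group, limits the precision, and the labels do not say how the animals are related.

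Gene names come from the platform annotation and all 77 probes matched the GRCm38.p6 gene numbers. Neighbouring genes and promoter sequences are those of RefSeq, GRCm38.p6. The transporters, the gene lists and the alternatives were chosen with earlier results of these data known. Named with values were transporters with a known role in kidney or as drug pumps, every called member with a change of at least 1 log2 unit, and, of the drivers and regulators, the 2 largest called falls and rises. Pdzk1 and the remaining uncalled members were added after their values were seen. The alternatives covered the filter, the value added, the normalization, the background correction, probes, prior, age, the replicate number and single arrays.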

Additional observations from a re-analysis of the deposited data

Results flagged for a closer look

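Tumor 1 stood far above the other 3 tumors in 6 genes, measured as the gap to the nearest tumor divided by the range of the 4 log2 values and set against the 95% critical value of Dixon for 4 samples. The share was 0.908 for Slc22a12, 0.865 for Slc22a22, 0.942 for Slc22a8, 0.886 for Slc22a7, 0.862 for Slc22a5 and 0.90 for Slc22a23. Control 2 stood far above the other controls for Slc22a13 (0.969) and Abcc9 (0.883). Of 64 groups examined, chance flags about 1 in 20.

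The difference between tumor and control itself differed with age for Slc22a18, by -4.41 log2 units at 4 months relative to 5 weeks (limma interaction, adjusted p = 0.0253). For 4 further genes tumors 2 to 4 all lay below the controls of their age while tumor 1 lay above control 1. This was read on the probe that stands for each gene, and a second probe of Slc22a13 had tumor 1 below control 1. The interaction did not pass the limma test for any of the 4 genes. They were Slc22a13 (-5.18, adjusted p = 0.0791), Slc22a8 (-3.52, adjusted p = 0.107), Slc22a7 (-2.45, adjusted p = 0.638) and Abcb9 (-1.28, adjusted p = 0.409).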

How the results depend on the processing

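Over all alternatives of the 8-array comparison, 13 to 20 transporters fell, against 18 as reported, and at 4 months 16 to 22, against 19. Of the 19 called genes 13 stayed called in all 21 alternatives, 6 lost the call in some (Slc22a8, Slc22a13, Slc22a17, Slc22a23, Slc22a26 and Abcb8) and 0 reversed, while 7 uncalled genes passed in some. Over 8 arrays the 1 rise became 0 with quantile normalization and 0 with cyclic loess. It became 3 with normexp correction, with age as a covariate and with the replicate block. Single arrays left out gave 1 to 3 rises, and leaving out tumor 1 and control 2 together, chosen after seeing the data, gave 4. At 4 months the 1 rise became 0 with no filter, 64 added, quantile normalization, cyclic loess or equal medians, 2 with normexp, 2 with the replicate block, and 0 to 2 with single arrays left out. Genes whose tumor effect differed with age numbered 1 as reported, 3 with no filter, 2 with every probe by itself and 0 to 3 with single arrays left out. Without control 4 or without tumor 3 it was 0, and without control 3 it was 3. With the replicate block 15 fell over 8 arrays and 18 at 4 months. The numbers were not taken to pair the samples, since same-numbered arrays correlated at 0.0656 to 0.208 and 5 of 8 arrays correlated best with their own number. The cause of these shifts was not tested. Changes of sign were limited to genes that had not passed: Slc22a14 was -0.0278 with quantile normalization, Slco4a1 -0.00532 and Abcc5 -0.0883 with cyclic loess. Slco2a1 was -0.00346 with quantile normalization, -0.0834 with cyclic loess and -0.00334 at 4 months. With single arrays left out, Abcc10 ran from -0.54 to 0.00739, Slco4a1 ran from -0.0379 to 0.88 and Slco2a1 ran from -0.00709 to 0.65. Signals near the background limit, as for Slc22a26 and Abcc6 in tumors, give only bounds.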
